A study of Mus musculus with 30 samples.

Results

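The genes described here are the ligands, receptors and transcription factors of the hedgehog pathway: Ihh, Shh and Dhh, the receptor genes Ptch1 and Smo, the transcription factor genes Gli1, Gli2 and Gli3, and the ligand-binding antagonist gene Hhip. They were chosen by name, as the probe sets annotated to 1 of these symbols and no other. Each of the 9 genes had 1 such probe set, out of 30142 genes measured. RNA of the whole uterus of female mice 21 days old, before puberty, was measured on 30 Affymetrix arrays, 3 for each of 10 groups. Genotypes were wild type (WT) and the Ex3aERKO knockout of estrogen receptor alpha (KO), the nuclear receptor of estradiol (E2). In each genotype, a group received saline vehicle and was collected 24 h later. Further groups received 250 ng of E2 in saline and were collected 2 h or 24 h later. The remaining groups received insulin-like growth factor 1 (IGF1) in PBS, either 1 injection of 50 ug with collection at 2 h, or 3 such injections with collection 24 h after the first. All injections were intraperitoneal, and the labels mention no removal of the ovaries. Vehicle was collected at 24 h alone, so a 2 h group set against vehicle also differs from it in the time since injection. The IGF1 groups had PBS and the vehicle groups saline. The labels number 3 replicates per group without saying that each was a separate animal, so the p-values measure the spread between these samples, which may in part be technical.

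In the hedgehog pathway a secreted ligand binds Patched1 on the receiving cell, which lifts the inhibition of Smoothened, and Gli proteins then reach the nucleus and regulate their targets. Ptch1, Gli1 and Hhip are themselves classical targets of the pathway, so their RNA is widely used as a readout of it. In the adult mouse uterus Ihh is made by the epithelium in response to progesterone, and Ptch1, the Gli genes and Nr2f2 are found in the stroma beneath it.

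The values are the deposited log2 values, and differences are given as log2 differences with the standard error of a limma fit over all 30 arrays and with its Benjamini-Hochberg adjusted p over all 30142 genes, called at 0.05. As a background floor, each array was given the 95th percentile of its values over 1225 genes of olfactory receptors, which fell between 5.69 and 6.57. The 3 values of a group are given in the order of the replicate numbers. Esr1, the gene of the receptor, ran from 9.38 to 10.41 on the 15 KO arrays and from 11.44 to 12.73 on the 15 WT arrays, with no overlap. KO E2 24 h replicate 2 and WT vehicle replicate 1 stood apart from the other arrays, with the lowest array weights (0.259 and 0.166) and the highest floors (6.57 and 6.50). On WT vehicle replicate 1 Xist, the RNA of the inactive X chromosome, was at 10.16 against 17.01 to 18.12 on the others, while the Y-linked genes Kdm5d (5.13), Eif2s3y (5.39) and Uty (4.86) lay below its floor.

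The promoters of Ihh and Ptch1, the member genes that changed 2 h after E2 in WT, are shown so that the site of each gene can be seen. RefSeq on the mouse build GRCm38.p6 gives promoter windows for 7 of the 9 genes, Shh and Gli1 not being among them. Each sequence is the 250 bases before the annotated start on the strand of the gene, the minus strand in both, at chr1:74951673-74951922 for Ihh and chr13:63565736-63565985 for Ptch1.
Ihh: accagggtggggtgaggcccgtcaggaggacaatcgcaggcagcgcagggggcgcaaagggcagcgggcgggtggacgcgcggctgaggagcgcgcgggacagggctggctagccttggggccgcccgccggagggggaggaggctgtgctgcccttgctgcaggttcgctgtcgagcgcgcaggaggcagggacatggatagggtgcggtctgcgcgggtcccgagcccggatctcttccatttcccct
Ptch1: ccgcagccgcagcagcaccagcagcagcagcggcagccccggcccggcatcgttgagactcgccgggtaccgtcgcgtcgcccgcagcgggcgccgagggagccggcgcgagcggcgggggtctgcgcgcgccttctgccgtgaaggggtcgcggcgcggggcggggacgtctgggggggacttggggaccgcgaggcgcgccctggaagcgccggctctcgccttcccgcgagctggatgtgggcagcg
The Ihh stretch is 72% G and C with 24 CpG dinucleotides, and the Ptch1 stretch is 78.4% G and C with 41. The windows, 250 bases before to 50 after the start, were searched on both strands for the Gli consensus GACCACCCA and the palindromic estrogen response element, GGTCA and TGACC around 3 bases of any kind. Neither was found in any of the 7 windows. In all 32851 promoter windows the Gli consensus was found in 83 (0.253%) and the estrogen response element in 23 (0.07%). A single arm of that element, GGTCA, was found in 40.5% of all windows and among the 7 in that of Gli3 alone, on the strand opposite to the gene, at position -122 from the annotated start. No letters are in capitals, since neither stretch held a match.

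Of the 9 genes, Ptch1, Smo, Gli1, Gli2 and Gli3 lay above the floor on all 30 arrays. Ihh lay above it in 9 of 10 groups and on 27 arrays, and KO vehicle was the group at the floor. Shh, Dhh and Hhip lay below the floor on every array, at 4.58 to 5.53, 4.64 to 5.75 and 4.37 to 5.33. No fold is given for these genes. Limma called Dhh higher in WT 24 h after E2 than in vehicle (0.50 ± 0.17, adjusted p = 0.0292) and Hhip higher at 24 h than at 2 h after E2 in WT (0.40 ± 0.14, adjusted p = 0.0293), in each case between values below the floor. The Dhh call was lost without any of 4 single arrays and the Hhip call without any of 5, with adjusted p up to 0.188 and 0.0946.

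**Figure D1:**
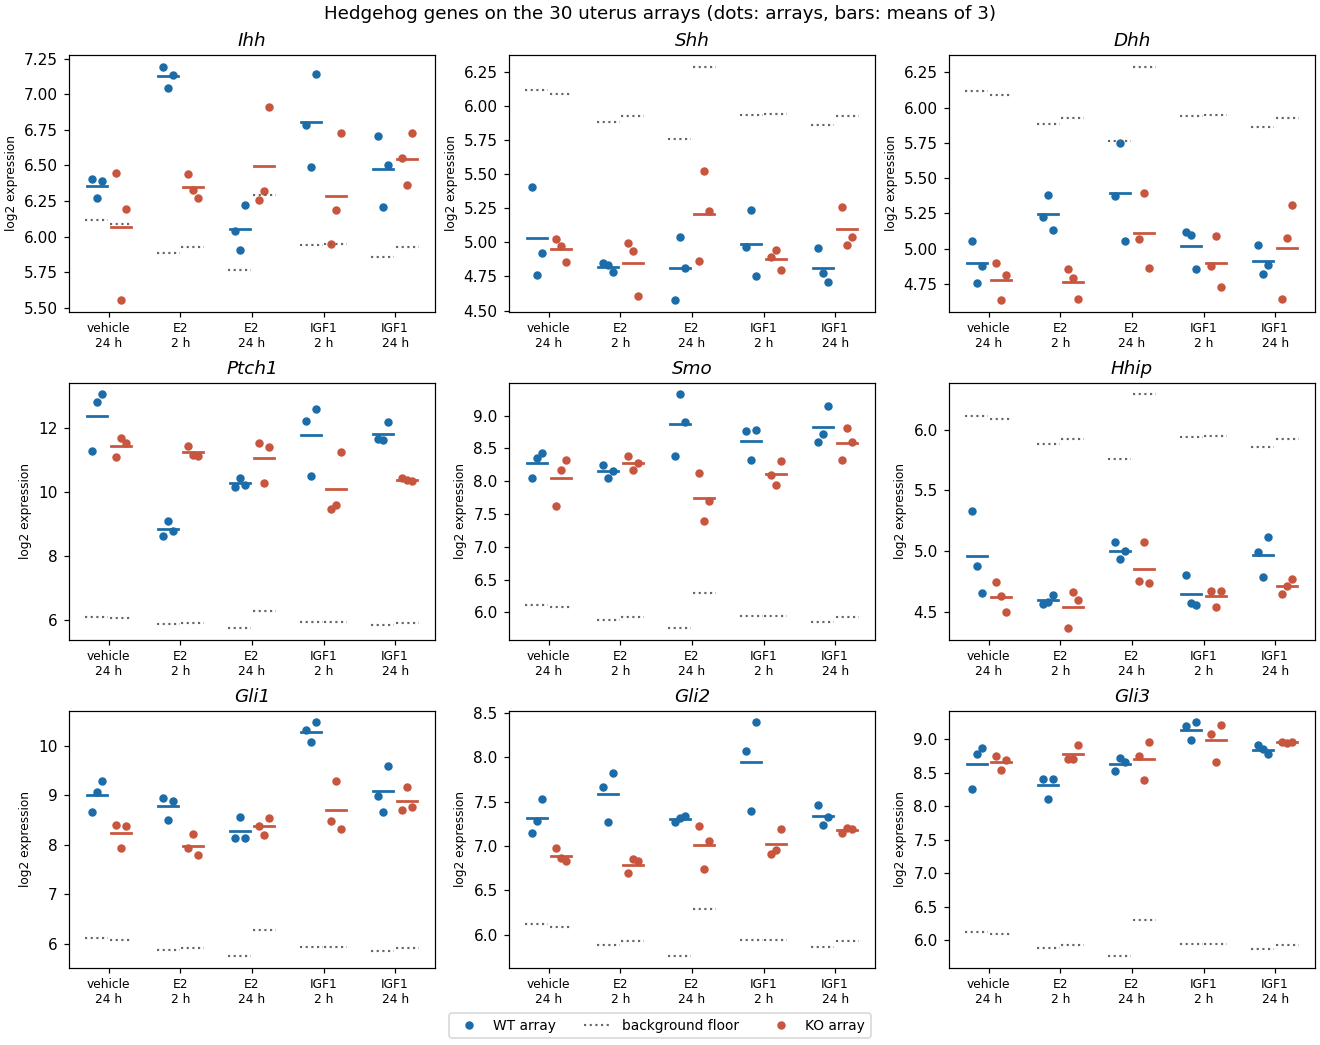
Deposited log2 level of each of the 9 hedgehog genes by treatment and collection time. Dots are arrays (blue WT, red KO), bars are means of 3 and dotted lines are the mean floor of the group; Ptch1 is lowest in WT 2 h after E2 (mean 8.84), Gli1 is highest in WT 2 h after IGF1 (mean 10.28), and Shh, Dhh and Hhip stay below the floor.

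Ihh, the ligand gene of the uterine epithelium, rose in WT 2 h after E2. It was at 7.20, 7.04 and 7.14 in that group and at 6.40, 6.27 and 6.39 in WT vehicle. The groups did not overlap, and the difference was 0.77 ± 0.22 (1.71-fold, limma adjusted p = 0.0117), or 0.80 with adjusted p = 0.0264 without WT vehicle replicate 1. Of 13 uterine epithelium markers 3 were called higher in the same comparison and 0 lower, with a median change of 0.28, and their part in the Ihh value was not tested. The vehicle values lay close to the floor, which averaged 6.12 in that group, so the fold rests on a dim starting level. At 24 h after E2 the WT arrays read 6.04, 5.91 and 6.22, which was lower than at 2 h by a difference of -1.07 ± 0.22 (adjusted p = 0.000447) and not called against vehicle (-0.30, adjusted p = 0.31). After IGF1 the WT values were 6.79, 6.49 and 7.14 at 2 h and 6.71, 6.21 and 6.50 at 24 h, neither called against vehicle (0.45, adjusted p = 0.166, and 0.12, adjusted p = 0.785). With array weights the 2 h difference was called (0.50, adjusted p = 0.0233). The WT values at 2 h after IGF1 overlapped with those at 2 h after E2, and Ihh was not called between these treatments.

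In KO the Ihh values were 6.45, 5.55 and 6.19 in vehicle and 6.44, 6.33 and 6.27 at 2 h after E2. The KO groups overlapped (0.28 ± 0.22, adjusted p = 0.612). At 2 h after E2 the KO arrays lay below all WT arrays (-0.78 ± 0.22, adjusted p = 0.0118), while 7 of the 13 epithelium markers were called higher in KO and 1 lower. The E2 response itself was not shown to differ between the genotypes (KO minus WT -0.49, 95% interval -1.12 to 0.14, adjusted p = 0.448). The other treated KO groups read 6.25, 6.32 and 6.91 at 24 h after E2, 5.95, 6.18 and 6.73 at 2 h after IGF1, and 6.55, 6.36 and 6.72 at 24 h after IGF1. None was called against KO vehicle, with differences of 0.22 to 0.48. With array weights the difference at 24 h after IGF1 was called (0.57, limma adjusted p = 0.0421). In the order of the 10 group means, from WT 24 h after E2 (6.06) to WT 2 h after E2 (7.13), every pair of neighbours overlapped.

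Ptch1, the gene of the hedgehog receptor, fell in WT after E2. It was at 11.29, 12.82 and 13.05 in WT vehicle, 8.65, 9.09 and 8.79 at 2 h and 10.17, 10.44 and 10.24 at 24 h. All 6 E2 arrays lay below all 3 vehicle arrays, and within vehicle replicate 1 was the lowest. The change was -3.55 ± 0.47 at 2 h (11.7-fold lower, limma adjusted p = 6.03e-06) and -2.10 ± 0.47 at 24 h (4.3-fold lower, adjusted p = 0.00151). Without WT vehicle replicate 1 these were -4.09 (adjusted p = 1.68e-06) and -2.65 (adjusted p = 0.000221). Between 2 h and 24 h after E2 the level rose by 1.44 ± 0.47 (adjusted p = 0.0248), a call that was lost without WT E2 24 h replicate 2 or 3 or WT E2 2 h replicate 1 or 3, with adjusted p of 0.055 to 0.0818. The range of the 10 group means of Ptch1, 3.55, was wider than that of 98.8% of all genes.

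In KO, Ptch1 was at 11.10, 11.70 and 11.55 in vehicle and at 11.45, 11.16 and 11.13 at 2 h after E2. These groups overlapped, with a difference of -0.20 and a 95% interval of -1.18 to 0.78 (adjusted p = 0.889). The 2 h response to E2 differed between the genotypes by 3.34 ± 0.67 (KO minus WT, limma adjusted p = 0.00208), and by 3.89 (adjusted p = 0.000364) without WT vehicle replicate 1. At 24 h after E2 the KO arrays read 11.52, 10.28 and 11.40, overlapping with KO vehicle (-0.38, adjusted p = 0.768). The low array was replicate 2, which stood apart. The difference between the 24 h responses, 1.72 ± 0.67, missed the threshold (adjusted p = 0.0662). It passed without WT vehicle replicate 1 (2.27, adjusted p = 0.0167), without KO E2 24 h replicate 2 (2.12, adjusted p = 0.0382), and without KO IGF1 2 h replicate 3 or WT IGF1 2 h replicate 2 (1.72 in both, adjusted p = 0.0392 and 0.0353).

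After IGF1, Ptch1 was not called in either genotype. In WT it was at 12.21, 10.51 and 12.60 at 2 h and at 11.66, 11.64 and 12.18 at 24 h, and both groups overlapped with vehicle (-0.61, adjusted p = 0.419, and -0.56, adjusted p = 0.544). With array weights both differences were called (-0.92, adjusted p = 0.0255, and -1.07, adjusted p = 0.027). In KO it was at 9.48, 9.60 and 11.26 at 2 h, with 2 arrays below every vehicle array and 1 among them (-1.33 ± 0.47, adjusted p = 0.0916). Without the higher array, KO IGF1 2 h replicate 3, the difference was -1.91 (adjusted p = 0.00718), and without WT IGF1 2 h replicate 2 the same difference of -1.33 had an adjusted p of 0.0483. The KO 2 h difference was also called with array weights (-1.56, adjusted p = 0.0342) and quantile normalization (-1.51, adjusted p = 0.0475). It was called as well without both arrays that stood apart (-1.33, adjusted p = 0.0389). At 24 h the KO arrays read 10.43, 10.39 and 10.35, all below KO vehicle, and the difference of -1.06 ± 0.47 was not called (adjusted p = 0.153). It was called with the compared groups alone (-1.06, adjusted p = 0.0118) and with array weights (-1.15, adjusted p = 0.0267). The IGF1 responses were not shown to differ between the genotypes (-0.72, 95% interval -2.10 to 0.67 at 2 h, and -0.50, -1.89 to 0.88 at 24 h). Markers of fat cells varied between these arrays: the mean of 5 of them was 11.12 on WT IGF1 2 h replicate 2 against 8.55 and 7.74 on its replicates, and 10.68, 10.13 and 9.15 on the KO IGF1 2 h arrays. The arrays of the lower Ptch1 values had the higher fat marker values in both groups. Other groups went both ways. The array of lowest Ptch1 had the lowest fat marker mean in WT vehicle and at 2 h after E2 in WT and KO. It had the highest at 24 h after IGF1 in WT and KO and at 24 h after E2 in KO. WT IGF1 2 h replicate 2 also had the lowest stroma (11.24) and smooth muscle (12.85) marker means of its group. KO IGF1 2 h replicate 1, lowest in Ptch1, had the highest smooth muscle marker mean (13.65). The part of these markers in the Ptch1 values was not tested.

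Stroma markers moved with Ptch1 in WT 2 h after E2. Of 11 measured, 7 were called lower and 0 higher, with a median change of -1.78 against -0.09 over all genes. Without WT vehicle replicate 1, 9 were called lower. Their mean level was 10.13 to 10.29 on those arrays and 11.25 to 11.84 in WT vehicle. In whole tissue, fewer cells of a type and less RNA per cell cannot be told apart. At 24 h after E2 the mean of the stroma markers was 12.33 to 12.52, above all vehicle arrays, while Ptch1 was below them. There 4 of the 11 were called higher and 1 lower (2 without WT vehicle replicate 1), with a median change of 0.25. Of the 13 epithelium markers 10 were called higher and 0 lower in WT 24 h after E2, with a median change of 2.65 and a mean level of 10.93 to 10.98 against 8.61 to 8.91 in vehicle. The part of these markers in the Ptch1 and Gli1 values was not tested. In KO 2 h after E2 limma called 0 of the 11 (2 at an unadjusted p under 0.05). Of 10 smooth muscle markers limma called 0 in WT 2 h after E2 (0 at an unadjusted p under 0.05). No stroma or smooth muscle marker was at the floor on any array, and of 7 ovary and oviduct markers 4 to 6 were at the floor on each array.

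**Figure D2:**
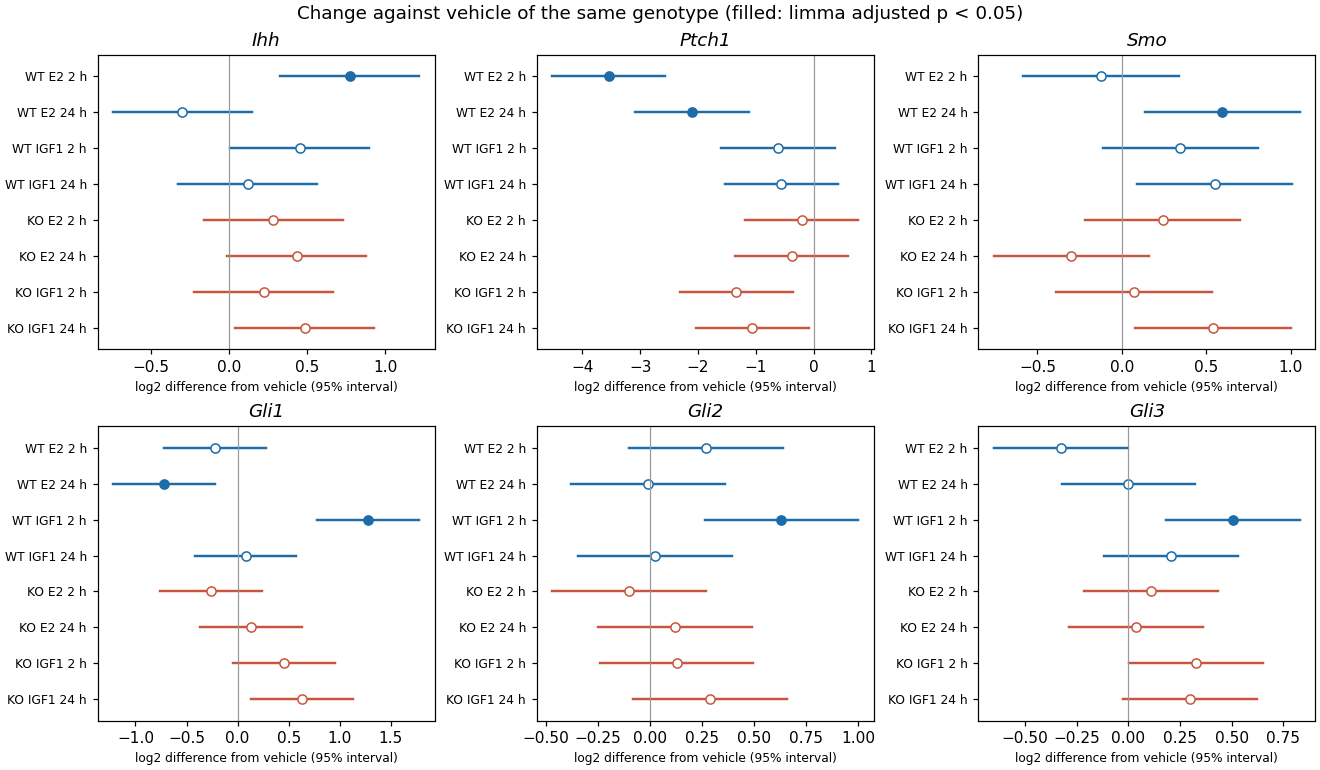
Log2 difference from the vehicle group of the same genotype for the 6 hedgehog genes above the floor, with 95% intervals (blue WT, red KO; filled symbols are called by limma at adjusted p below 0.05). Ptch1 in WT after E2 lies at -3.55 and -2.10, the KO E2 intervals of Ptch1 include 0, and Gli1 in WT 2 h after IGF1 lies at 1.28.

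Smo, the gene of the membrane protein that Patched1 holds inactive, showed small changes. In WT it was at 8.04, 8.35 and 8.42 in vehicle and at 8.38, 9.32 and 8.90 at 24 h after E2. The groups overlapped, and the difference of 0.59 ± 0.22 was called (1.51-fold, limma adjusted p = 0.0463). The call was lost without any of 18 of the 30 arrays, among them WT E2 24 h replicate 2 (0.37, adjusted p = 0.252) and WT vehicle replicate 1 (0.48, adjusted p = 0.182). In KO the same treatment gave 8.13, 7.40 and 7.69 against 7.62, 8.18 and 8.33 in vehicle, which was not called. The KO arrays lay below all WT arrays 24 h after E2 (-1.13 ± 0.22, 2.18-fold, adjusted p = 0.000304), and by -0.96 (adjusted p = 0.00415) without KO E2 24 h replicate 2. In that comparison 47% of all genes were called. Of 11 stroma markers 7 were called lower in KO and 1 higher, with a median of -1.45. Of 13 epithelium markers 8 were called lower and 1 higher. The mean of the smooth muscle markers was 11.74 in KO and 13.39 in WT. The part of these markers in the Smo values was not tested. The E2 responses at 24 h differed between the genotypes by -0.89 ± 0.31 (adjusted p = 0.0443), which was lost without any of 11 single arrays, among them KO E2 24 h replicate 2 (-0.72, adjusted p = 0.135) and WT vehicle replicate 1 (-0.78, adjusted p = 0.115). Smo in WT also rose from 8.25, 8.05 and 8.16 at 2 h after E2 to its 24 h values (0.72 ± 0.22, adjusted p = 0.0173), a call lost without WT E2 24 h replicate 2 (0.49, adjusted p = 0.143) or WT E2 2 h replicate 2 (0.67, adjusted p = 0.06). After IGF1 Smo was at 8.32 to 8.78 at 2 h and 8.59 to 9.15 at 24 h in WT, and at 7.94 to 8.31 and 8.33 to 8.81 in KO, with no call against vehicle.

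Gli1, the Gli gene that is itself a target of the pathway, rose in WT 2 h after IGF1. It was at 10.31, 10.06 and 10.47 in that group and at 8.67, 9.06 and 9.28 in WT vehicle. All 3 IGF1 arrays lay above all other 27 arrays. The change was 1.28 ± 0.24 (2.43-fold, limma adjusted p = 0.000526), and 1.11 (adjusted p = 0.00538) without WT vehicle replicate 1. In the same comparison 6 of 13 epithelium markers were called higher (median 0.67; 4 without WT vehicle replicate 1), 2 of 10 smooth muscle markers (median 0.52) and 1 of 11 stroma markers (median -0.11), with 0 lower in each list. Their part in the Gli1, Gli2 and Gli3 values was not tested. At 24 h, after 3 injections of IGF1, the WT arrays read 8.99, 8.66 and 9.59, lower than at 2 h by a difference of -1.20 ± 0.24 (adjusted p = 0.00123) and overlapping with vehicle (0.08, adjusted p = 0.883). The range of the group means of Gli1, 2.29, was wider than that of 94.8% of genes. Its neighbours in the order of group means overlapped from KO 2 h after E2 (7.99) up to WT 24 h after IGF1 (9.08), and WT 2 h after IGF1 stood clear of them.

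After E2 in WT, Gli1 was at 8.94, 8.50 and 8.89 at 2 h, overlapping with vehicle (-0.22, adjusted p = 0.603), where Ptch1 had fallen. At 24 h it was at 8.13, 8.56 and 8.14, below all vehicle arrays (-0.72 ± 0.24, 1.65-fold lower, adjusted p = 0.0259). That call was lost without WT E2 24 h replicate 1 or 3 (-0.65 in both, adjusted p = 0.0871 and 0.0896) and without WT vehicle replicate 2 or 3 (-0.69, adjusted p = 0.0581, and -0.58, adjusted p = 0.105). It was lost as well when the arrays were centred on their medians (-0.62, adjusted p = 0.0718).

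In KO, Gli1 was at 8.41, 7.94 and 8.38 in vehicle, and all 3 lay below the WT vehicle arrays. That difference, -0.76 ± 0.24, was not called (adjusted p = 0.105), nor without WT vehicle replicate 1 (-0.92, adjusted p = 0.0621). Treated KO groups read 7.94, 8.23 and 7.79 at 2 h after E2, 8.38, 8.20 and 8.54 at 24 h after E2, 8.49, 9.29 and 8.31 at 2 h after IGF1 and 8.71, 9.16 and 8.76 at 24 h after IGF1. The 2 h IGF1 group overlapped with KO vehicle (0.45, 95% interval -0.04 to 0.95, adjusted p = 0.304), and the 24 h IGF1 group lay above it without a call (0.63 ± 0.24, adjusted p = 0.0866). That difference was called without KO IGF1 2 h replicate 2 (0.63, adjusted p = 0.0488). The 2 h response to IGF1 was not shown to differ between the genotypes (KO minus WT -0.83, 95% interval -1.53 to -0.12, adjusted p = 0.667). Under IGF1 at 2 h KO lay below WT by -1.58 ± 0.24 (3-fold, adjusted p = 0.000493). That call was lost with the compared groups alone (limma adjusted p = 0.125). Under E2 at 2 h the difference was -0.79 ± 0.24 (adjusted p = 0.022), lost without KO E2 2 h replicate 1 or 3 or WT E2 2 h replicate 1 or 3 (-0.70 to -0.77, adjusted p of 0.0653 to 0.0961).

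Gli2, the main activator of the Gli family, was at 7.15, 7.28 and 7.53 in WT vehicle and at 8.07, 7.39 and 8.39 at 2 h after IGF1 in WT. The groups overlapped at replicate 2, and the difference of 0.63 ± 0.18 was called (1.55-fold, limma adjusted p = 0.0151). It was lost without WT vehicle replicate 1 (0.55, adjusted p = 0.0741) and without WT IGF1 2 h replicate 1 (0.57, adjusted p = 0.0651) or 3 (0.41, adjusted p = 0.137). At 24 h after IGF1 it was at 7.47, 7.23 and 7.33, -0.61 ± 0.18 below the 2 h level (adjusted p = 0.0224), which was lost without either of WT IGF1 2 h replicates 1 and 3 or WT IGF1 24 h replicates 2 and 3 (-0.39 to -0.60, adjusted p of 0.0574 to 0.186). WT values after E2 were 7.67, 7.27 and 7.82 at 2 h and 7.28, 7.32 and 7.33 at 24 h, not called against vehicle.

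The 5 lowest group means of Gli2 were those of the 5 KO groups, from 6.79 at 2 h after E2 to 7.18 at 24 h after IGF1. In each of the 5 treatments the KO arrays did not overlap with the WT arrays. Limma called the genotypes apart 2 h after E2 (-0.80 ± 0.18, adjusted p = 0.00214) and 2 h after IGF1 (-0.93 ± 0.18, adjusted p = 0.00461). The call after IGF1 was lost with the compared groups alone (adjusted p = 0.282). In vehicle, where KO read 6.98, 6.87 and 6.83, the difference of -0.43 was not called (adjusted p = 0.28). At 24 h the differences were -0.30 (adjusted p = 0.167) after E2 and -0.16 (adjusted p = 0.813) after IGF1. Of 11 stroma markers, 8 were called higher in KO and 0 lower at 2 h after E2 (median 1.05). At 2 h after IGF1, 0 were higher and 2 lower (median -0.71), and in vehicle 0 higher and 1 lower (median -0.62). At 24 h after E2, 1 was higher and 7 lower. The part of these markers in the genotype differences of Gli1 and Gli2 was not tested.

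Gli3, whose protein acts largely as a repressor when the ligand is absent, was at 8.26, 8.79 and 8.87 in WT vehicle and at 9.19, 8.99 and 9.25 at 2 h after IGF1. The groups did not overlap, and the difference was 0.51 ± 0.16 (1.42-fold, limma adjusted p = 0.0261). It was 0.32 (adjusted p = 0.205) without WT vehicle replicate 1, the lowest array of its group, and was lost as well without WT IGF1 2 h replicate 1 (0.48, adjusted p = 0.0807) or 3 (0.45, adjusted p = 0.0982). At 2 h after E2 the WT arrays read 8.41, 8.11 and 8.41, overlapping with vehicle at that same array (-0.33 ± 0.16, adjusted p = 0.167). Without it the difference was -0.52 (adjusted p = 0.0207). KO lay above WT 2 h after E2 (0.46 ± 0.16, adjusted p = 0.0414), a call lost without any of the 6 arrays compared (adjusted p of 0.058 to 0.195). In KO, Gli3 lay between 8.39 and 9.21 over all 15 arrays, with no call against vehicle.

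Counted over the 9 genes, 2 were called in WT 2 h after E2, Ihh higher and Ptch1 lower, where limma called 19% of all genes. In WT 2 h after IGF1 3 were called higher (Gli1, Gli2 and Gli3) and 0 lower, with 17.2% of all genes called. In WT 24 h after E2 2 were higher (Smo and Dhh, the latter below the floor) and 2 lower (Ptch1 and Gli1), with 30.1% of all genes called. In WT 24 h after IGF1 limma called 0 (1 at an unadjusted p under 0.05, 1 with array weights), with 4.28% of all genes called. The comparisons share the vehicle arrays of their genotype. Without both arrays that stood apart, the counts in these comparisons were 3, 1, 3 and 0 in the same order, with Gli3 added at 2 h after E2 (-0.52, adjusted p = 0.00913), Gli2 (0.55, adjusted p = 0.0609) and Gli3 (0.32, adjusted p = 0.134) lost at 2 h after IGF1, and Smo lost at 24 h after E2 (0.48, adjusted p = 0.158). Between the times, 24 h against 2 h, 4 of the 9 were called in WT after E2 (Ihh lower, and Ptch1, Smo and Hhip higher, the last below the floor; 27.4% of all genes) and 2 in WT after IGF1 (Gli1 and Gli2, both lower; 14.5%). In KO limma called 0 between the times after E2 (3 at an unadjusted p under 0.05; 9.42% of all genes) and 0 after IGF1 (1 at an unadjusted p under 0.05; 8.98%).

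In KO limma called 0 of the 9 genes in each of the 4 comparisons with vehicle. At an unadjusted p under 0.05 there were 0 at 2 h after E2 (0.365% of all genes called), 2 at 2 h after IGF1 (7.13%), 0 at 24 h after E2 (0% of all genes called, 3735 at an unadjusted p under 0.05) and 4 at 24 h after IGF1 (13.6%). Between the vehicle groups, KO against WT, 0 were called and 3 had an unadjusted p under 0.05, with 2.92% of all genes called. With array weights, which count WT vehicle replicate 1 least, 3 were called lower in KO vehicle: Ptch1 (-1.39, adjusted p = 0.0107), Gli1 (-0.99, adjusted p = 0.00304) and Gli2 (-0.60, adjusted p = 0.02). Of the differences between the responses, limma called 1 for E2 at 2 h (Ptch1; 8% of all genes), 1 for E2 at 24 h (Smo; 22.1%), 0 for IGF1 at 2 h (1 at an unadjusted p under 0.05; 0.0133%) and 0 for IGF1 at 24 h (0 at an unadjusted p under 0.05; 0.00664%). Between the treated groups, KO against WT, 5 were called 2 h after E2 (17.9% of all genes), 2 at 2 h after IGF1 (1.95%) and 1 at 24 h after E2 (47%). At 24 h after IGF1 limma called 0 (1 at an unadjusted p under 0.05; 2.86%).

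E2 and IGF1 were also compared with each other at the same time after the first injection, without the vehicle arrays. In WT at 2 h, Ptch1 was -2.93 ± 0.47 lower after E2 than after IGF1 (7.63-fold, limma adjusted p = 0.000165), Gli1 -1.50 ± 0.24 (2.83-fold, adjusted p = 0.000151) and Gli3 -0.83 ± 0.16 (1.78-fold, adjusted p = 0.000963). The arrays of the treatments did not overlap for any of the 3 genes, and 5.57% of all genes were called. Each of these calls held without any single array. In the same contrast 7 of 11 stroma markers were called lower after E2 and 0 higher, with a median of -1.42. Their part in the values of these genes was not tested. At 24 h in WT, Ptch1 (-1.55 ± 0.47, adjusted p = 0.0373) and Gli1 (-0.80 ± 0.24, adjusted p = 0.0339) were lower after E2, with 10.1% of all genes called. The Ptch1 call was lost without any of the 6 arrays compared (-1.37 to -1.64, adjusted p of 0.0635 to 0.132), and the Gli1 call without WT E2 24 h replicate 1 or 3 or WT IGF1 24 h replicate 1 or 3 (-0.54 to -0.85, adjusted p of 0.0577 to 0.217).

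In KO the group means of Ptch1 lay the other way, but the arrays of the treatments overlapped at both times. At 2 h Ptch1 was 1.13 higher after E2 than after IGF1, not called (adjusted p = 0.236), and 1.71 higher (adjusted p = 0.0203) without KO IGF1 2 h replicate 3. At 24 h the KO means were 11.07 after E2 and 10.39 after IGF1, not called. The difference between the genotypes in this contrast was 4.06 ± 0.67 at 2 h (adjusted p = 0.000412; 3.93% of all genes called) and 2.22 ± 0.67 at 24 h (adjusted p = 0.0175; 24.3% called). Gli1 in KO was lower after E2 by -0.71 at 2 h (adjusted p = 0.118) and by -0.50 at 24 h (adjusted p = 0.132), and the arrays did not overlap in either. At 2 h in KO limma called 0 of the 9 genes (2 at an unadjusted p under 0.05), with 3.04% of all genes called. At 24 h in KO, Smo alone was called (-0.84 ± 0.22, adjusted p = 0.0103), with 21.5% of all genes called. That call was lost without KO E2 24 h replicate 2 (-0.67, adjusted p = 0.0774) or KO IGF1 24 h replicate 2 (-0.72, adjusted p = 0.0548). In that contrast 7 of 11 stroma markers were called lower after E2 and 1 higher. Their part in the Smo value was not tested.

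**Figure D3:**
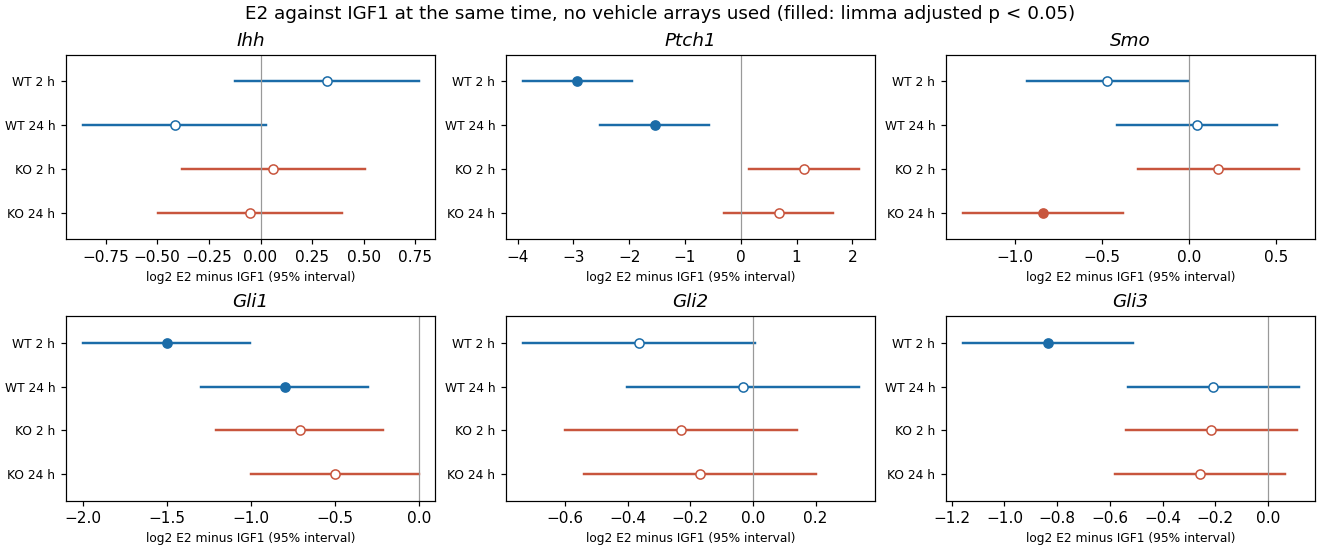
Log2 level after E2 minus log2 level after IGF1 at the same collection time, with 95% intervals, for the 6 genes above the floor (blue WT, red KO; filled symbols are called by limma at adjusted p below 0.05). Ptch1 lies at -2.93 in WT and 1.13 in KO at 2 h, and Gli1 lies below 0 in all 4 contrasts, from -1.50 to -0.50.

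The other genes of the pathway were followed as a list of 38, of which 33 had a probe set of their own and 28 were above the floor in a group. In WT 2 h after E2, 5 of the 33 were called higher and 11 lower, with a median of -0.21 against -0.09 over all genes, of which 19% were called. Without WT vehicle replicate 1 they were 5 higher and 7 lower. Scube1, which helps release the lipid-bearing ligand, rose from 8.14 ± 0.09 to 10.64 ± 0.76 (SD, n = 3; 2.50 ± 0.41, limma adjusted p = 7.21e-05). Csnk1a1, a kinase that acts on Gli proteins, rose by 1.79 (adjusted p = 2.6e-11), and Lrp2, a receptor that takes up hedgehog ligands, by 1.71 (adjusted p = 0.00518). Boc, a co-receptor for the ligand, had a change of -1.11 ± 0.19 (adjusted p = 0.00012). The other co-receptor genes of the list, named after their values were seen, were Cdon (-0.96, adjusted p = 0.021) and Gas1 (-0.63, adjusted p = 0.0247), and Gas1 lay below the floor in both groups. Without WT vehicle replicate 1 the changes were -1.20 (adjusted p = 0.000252) for Boc, -1.23 (adjusted p = 0.00667) for Cdon and -0.47 (adjusted p = 0.151) for Gas1. The E2 responses of Boc (KO minus WT 1.66, adjusted p = 0.000211), Cdon (1.47, adjusted p = 0.027) and Scube1 (-2.43, adjusted p = 0.00831) differed between the genotypes.

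After IGF1 at 2 h in WT, 7 of the 33 were called higher and 6 lower, with a median of 0.09 against -0.08 over all genes, of which 17.2% were called. Without WT vehicle replicate 1 they were 7 higher and 4 lower. Lrp2 (2.25, limma adjusted p = 0.000561), Scube1 (2.08, adjusted p = 0.000745), Glis2, a zinc finger gene related to the Gli genes (1.14, adjusted p = 0.000176), and Mosmo, which lowers Smoothened at the cilium (1.07, adjusted p = 0.00022), were the largest. In KO at 2 h after IGF1, where 7.13% of all genes were called, 4 were higher and 1 lower (2 lower without WT vehicle replicate 1), with Lrp2 at 2.55 (adjusted p = 0.00124), Glis2 at 1.17 (adjusted p = 0.00109), Prkaca, the catalytic subunit of the kinase that phosphorylates Gli proteins, at 0.73 (adjusted p = 0.0354), and Ift88, a gene of transport in the cilium, at -0.49 (adjusted p = 0.0209). In KO 24 h after IGF1, where 13.6% of all genes were called, 4 were higher and 0 lower (5 and 1 without WT vehicle replicate 1): Lrp2 (3.01, adjusted p = 9.8e-05), Scube1 (2.18, adjusted p = 0.000856), Prkaca (1.33, adjusted p = 0.000228) and Hhatl (0.44, adjusted p = 0.0477), the last below the floor. In WT 24 h after IGF1, with 4.28% of all genes called, Lrp2 was the single gene of the list called (1.54, adjusted p = 0.0407), and 0 were called without WT vehicle replicate 1. The WT vehicle level of Lrp2, 6.12, lay at the edge of the floor, so its size of change in WT is uncertain.

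In KO 2 h after E2, with 0.365% of all genes called, Lrp2 was the single gene of the list called. It was at 6.67 ± 0.42 in KO vehicle and 10.35 ± 0.62 after E2 (SD, n = 3), a change of 3.68 ± 0.43 (limma adjusted p = 0.000141). Its response was higher in KO than in WT by 1.97 (adjusted p = 0.0438). The WT vehicle level of Lrp2 lay at the edge of the floor, so the size of this difference is uncertain as well. In WT 24 h after E2, 3 of the list were higher and 4 lower (3 and 3 without WT vehicle replicate 1), with a median of -0.12 against -0.10 over all genes, of which 30.1% were called. Scube1 (2.17, adjusted p = 0.000247), Prkar1a, the regulatory subunit of the same kinase (0.86, adjusted p = 0.00976), Prkaca (0.83, adjusted p = 0.00442) and Disp1, which releases the ligand (-0.45, adjusted p = 0.00749), were the largest. Limma called 0 of the 33 in KO 24 h after E2 (4 at an unadjusted p under 0.05) and 0 between the vehicle groups (2 at an unadjusted p under 0.05).

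Genes that are known as hedgehog targets in the uterus or in other tissues formed a list of 26, with 23 measured and 20 above the floor in a group. In WT 2 h after E2, 3 were called higher and 8 lower (3 and 7 without WT vehicle replicate 1), with a median of -0.16 against -0.09 over all genes, of which 19% were called. The largest were Osr2 (-2.66, limma adjusted p = 6.1e-06), Nr2f2, the stromal receptor gene that Ihh signals to (-2.59, adjusted p = 1.64e-10), Hoxa11 (-1.94, adjusted p = 2.2e-05) and Hoxa10 (-1.79, adjusted p = 1.77e-05), the last both homeobox genes of uterine identity. Nr2f2, Hoxa10 and Hoxa11 are also among the stroma markers above, so they are not a separate sign. In KO 2 h after E2 limma called 0 of the 23 (2 at an unadjusted p under 0.05), and 6 of the responses were higher and 3 lower in KO than in WT (5 and 2 without WT vehicle replicate 1; 8% of all genes called). Nr2f2 (KO minus WT 2.39, adjusted p = 8.3e-07), Osr2 (2.58, adjusted p = 0.00164), Hoxa11 (2.57, adjusted p = 0.000166) and Hoxa10 (2.14, adjusted p = 0.00046) were among the 6.

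In WT 2 h after IGF1, where Gli1 rose, 3 of the 23 targets were higher and 5 lower (2 and 4 without WT vehicle replicate 1), with a median of 0.00 against -0.08 over all genes, of which 17.2% were called. Snai1, a repressor of epithelial genes, rose from 6.91 ± 0.10 to 9.22 ± 0.19 (SD, n = 3; 2.31 ± 0.25, limma adjusted p = 3.02e-06). The cell cycle kinase gene Cdk6 (-1.28, adjusted p = 0.000813), the survival gene Bcl2 (-1.19, adjusted p = 0.0197) and the secreted factor gene Bmp4 (-1.16, adjusted p = 0.00499) were lower. In WT 24 h after E2, where Ptch1 and Gli1 were lower, 1 target was higher and 3 lower (1 and 4 without WT vehicle replicate 1; 30.1% of all genes called): Wnt5a, a stromal Wnt ligand (1.38, adjusted p = 2.28e-07), Bcl2 (-1.75, adjusted p = 0.000491), Bmp4 (-1.20, adjusted p = 0.00214) and Cdk6 (-0.70, adjusted p = 0.0406). In WT 24 h after IGF1, with 4.28% of all genes called, Wnt5a (0.70, adjusted p = 0.00923) was higher and Mycn (-0.40, adjusted p = 0.0382) lower, and 0 were called without WT vehicle replicate 1.

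In KO 2 h after IGF1, Snai1 (1.10, limma adjusted p = 0.00873) and the cyclin gene Ccnd2 (1.01, adjusted p = 0.0197) were higher and 0 lower (1 lower without WT vehicle replicate 1), with 7.13% of all genes called. In KO 24 h after IGF1, 7 targets were higher and 2 lower, with 13.6% of all genes called, among them Osr1 (2.47, adjusted p = 0.000512), Osr2 (1.41, adjusted p = 0.00903), Hoxa11 (1.39, adjusted p = 0.00191) and Bcl2 (-1.45, adjusted p = 0.00675), while Ptch1 was not called. Stroma markers were also higher there, 6 of 11 called higher and 1 lower. Limma called 0 targets in KO 24 h after E2 (2 at an unadjusted p under 0.05). Between the vehicle groups, with 2.92% of all genes called, Ccnd2 (KO minus WT 1.66, adjusted p = 0.000429) and Wnt5a (0.81, adjusted p = 0.00197) were higher in KO and Osr2 (-1.35, adjusted p = 0.035) was lower. Without WT vehicle replicate 1 that count was 3 higher and 3 lower. Uterine epithelium markers were higher in KO vehicle for 5 of 13 (3 without WT vehicle replicate 1), with 0 lower. Of 11 stroma markers 0 were called higher and 1 lower there (2 lower without WT vehicle replicate 1), with a median of -0.62. The part of these markers in the target values was not tested.

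**Figure D4:**
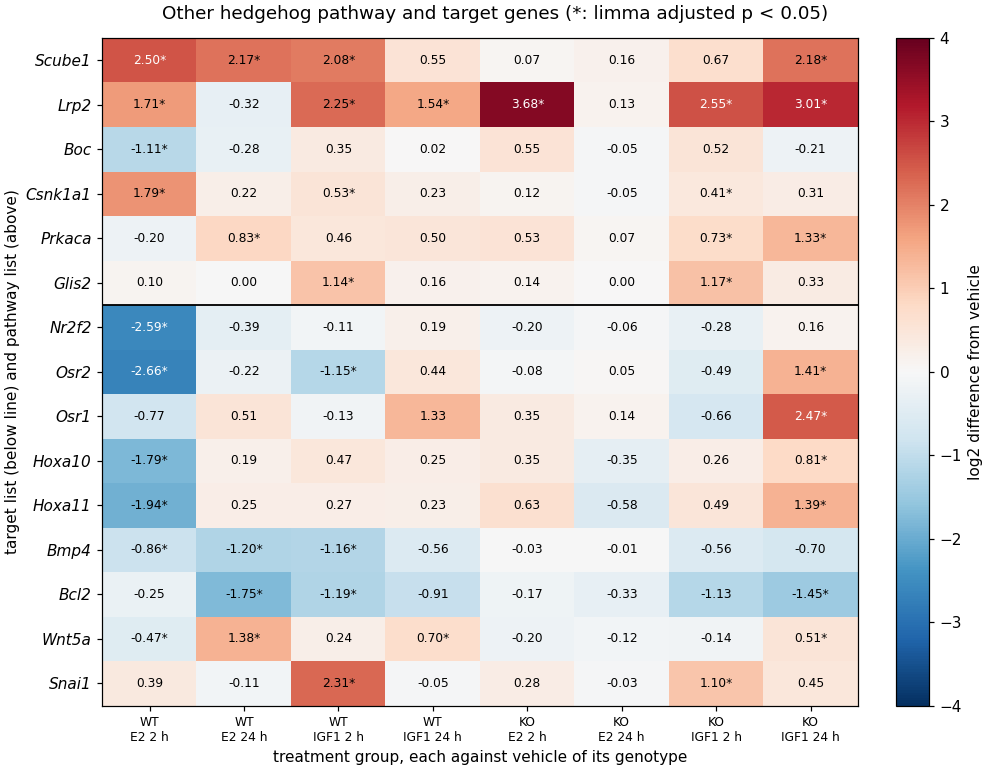
Log2 change against vehicle of the same genotype for named genes of the pathway list (above the line) and of the target list (below it), by treatment and time (numbers in the cells are log2 changes, red higher and blue lower, stars called by limma at adjusted p below 0.05). Scube1 and Lrp2 are higher after both E2 and IGF1 at 2 h in WT, and Nr2f2 (-2.59), Osr2 (-2.66) and Boc (-1.11) are lower after E2 at 2 h in WT.

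Pearson's correlation of the 10 group means was 0.862 for Gli1 with Gli2, 0.648 for Ihh with Gli2, 0.267 for Ptch1 with Gli1 and -0.370 for Ihh with Ptch1. These are given as a description over 10 points, each the mean of 3 arrays. Over deviations from the group means on the 30 arrays it was 0.678 for Ptch1 with Gli2 and 0.622 for Ptch1 with Gli3. Among 12532 genes above the floor in a group, those whose group means were most like Ptch1 were Rassf2 (0.939), Tent5c (0.916), Serac1 (0.914) and Hoxa3 (0.914). Those most like Gli1 were Slc6a9 (0.953), Pth1r (0.949), Socs5 (0.936) and Cep170 (0.923). Those most like Ihh were Eya3 (0.933), Nova2 (0.928), Ccdc69 (0.915) and Tecpr2 (0.912). The group means of these similar genes spanned from 0.28 (Eya3) to 1.86 (Ccdc69), against 3.55 for Ptch1, 2.29 for Gli1 and 1.07 for Ihh. No such genes are given for Hhip, which lay below the floor on every array. Over the 30 single arrays these correlations were lower, 0.402 to 0.911, and Pth1r with Gli1 was the highest.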

How the data were processed

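The authors deposited log2 values for 72688 probe sets. Total RNA (Trizol, then an RNeasy clean-up) was labelled from 300 ng with the WT Plus kit, per the labels' protocols. For software, background correction and normalization the sources used here give nothing, and the build is not given. An annotation of the platform listed 32750 probe sets, 30604 with 1 symbol (kept) and 2146 with several, and 39938 were not listed. After 827 symbols were updated, 30142 genes were tested. Where a gene had several probe sets (355 genes), the brightest on average stood for it.

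Group means over 30 arrays were fitted with limma 3.58.1 in R 4.3.3 (with data.table, version 1.17.8), with 20 residual degrees of freedom, in 27 comparisons. P-values were adjusted by Benjamini-Hochberg over all genes, called at 0.05. The fit was tested on simulated data. The number of arrays limits the precision. A fold is given as the measured one only where both group means lay above the floor. Scaling was not changed: centring each array on its median moved the median change of all genes from -0.09 to 0.02 in WT 2 h after E2, from -0.08 to 0.03 in WT 2 h after IGF1, from -0.10 to 0.01 in WT 24 h after E2 and from 0.19 to 0.00 for the genotype difference of the 24 h E2 response. The share of called genes that were higher moved with it, from 51.7% to 66.3%, 55.5% to 70.8% and 55.8% to 69.6% in the first 3, and from 45.0% to 22.6% in the last. It moved from 70.9% to 81.1% in KO 2 h after E2 and from 58.7% to 69.6% in KO 2 h after IGF1, and from 45.1% to 34.2% for the genotype difference of the 2 h E2 response.

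The members, lists and alternatives were chosen with earlier results of these data known. Named beside the 9 genes are up to 4 called genes of largest change per list and comparison with vehicle or between vehicle groups, and the 4 genes of most similar group means for Ihh, Ptch1 and Gli1. The rule covered Hhip too, which is left out here because it lay below the floor. Promoters are RefSeq's on GRCm38.p6. Alternatives were array centring, quantile normalization, a filter on dim genes, averaging of probe sets, fitting only the compared groups, a trended prior, array weights, a replicate block and leaving out each array. List counts without the arrays that stood apart were added after the data were seen.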

Additional observations from a re-analysis of the deposited data

Results flagged for a closer look

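For 5 contrasts of the hedgehog genes, limma called the effect itself different between the genotypes. The 2 h response of Ptch1 to E2 was 3.34 higher in KO than in WT (KO overlapped with its vehicle, WT fell). The difference of Ptch1 between E2 and IGF1, in KO minus WT, was 4.06 at 2 h and 2.22 at 24 h. For Smo, the 24 h response to E2 was lower in KO by a difference of -0.89, and the difference between E2 and IGF1 at 24 h by -0.88. The 3 contrasts of Ptch1 kept their call without any single array, and those of Smo lost it without any of 11 and 9 single arrays.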

How the results depend on the processing

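Of 34 called results of the 9 genes, 16 kept their call under every one of the alternatives that could be computed, and none of the 34 reversed. They gave 1324 values, of which 1207 kept the call and 117 lost it. Dhh and Hhip gave no value under the filter on dim genes, which left 18434 genes. Counts of hedgehog genes called that changed by more than 1.5 times were as follows. With array weights they were 2 for the E2 2 h response in KO minus WT, 3 for the E2 24 h response in KO minus WT, 4 in WT 2 h after E2, 5 in WT 2 h and 1 in WT 24 h after IGF1, 1 in KO 2 h and 3 in KO 24 h after IGF1, and 3 for KO against WT vehicle. With the compared groups alone they were 0 for the E2 24 h response in KO minus WT, 2 in WT 24 h after E2, 1 in WT 2 h after IGF1 and 1 in KO 24 h after IGF1. With quantile normalization they were 2 for the E2 24 h response in KO minus WT and 1 in KO 2 h after IGF1. Without both arrays that stood apart they were 2 for the E2 2 h response in KO minus WT, 1 in KO 2 h after IGF1 and 1 in WT 2 h after IGF1. Smaller moves were to 3 in WT 2 h after E2 with centred arrays or quantile normalization, where Dhh, below the floor, was added (0.47 in both, adjusted p = 0.0349 and 0.0327), and without both arrays that stood apart. The count in WT 24 h after E2 was 3 with centred arrays, quantile normalization, the filter on dim genes or without both arrays. The cause of these moves was not tested.

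Leaving out each array gave counts of 2 to 3 in WT 2 h after E2, 1 to 4 in WT 24 h after E2, 1 to 4 in WT 2 h after IGF1, 0 to 1 in KO 2 h and in KO 24 h after IGF1, 1 to 1 for the E2 2 h response and 0 to 2 for the E2 24 h response in KO minus WT, and 0 to 0 in the other comparisons counted.

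The replicate numbers did not pair the arrays: the mean correlation of deviations was 0.00633 for arrays of the same number and -0.00209 for arrays of other numbers. With the replicate number as a block, the count for the E2 24 h response in KO minus WT was 2, the second gene being Ihh (0.73, limma adjusted p = 0.0406), and WT 2 h after E2 had 5695 genes called against 5731 without the block. Shh, Dhh and Hhip lay below the floor on all 30 arrays and Ihh close to it, which limits their values.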
